A study of Mus musculus with 6 samples.

Results

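The genes of blood coagulation and fibrinolysis were compared between livers of alkaline sphingomyelinase knockout mice and livers of wildtype mice. The 34 genes were chosen by name from the table of all genes: the fibrinogen chains, the clotting factors, their inhibitors and the plasminogen system, with the fibrinogen-like gene Fgl1. All 34 were found among the 23415 genes listed, and 33 of them were among the 11515 genes that the authors tested. RNA was sequenced from 6 livers, 3 of knockout mice (animals 82, 84 and 85) and 3 of wildtype mice (animals 81, 83 and 90), all labelled C57BL/6. The genotype was read from the first letter of each sample name, K or W, and no age, sex or treatment is given in the sources used here. The authors deposited 1 expression value per gene and group, so no spread between mice can be shown, and the values below are taken as FPKM, which are fragments scaled for transcript length and sequencing depth.

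Clotting is a cascade of serine proteases that circulate as inactive precursors and end in thrombin, which turns soluble fibrinogen into fibrin. Hepatocytes make and secrete nearly all of these plasma proteins, whereas endothelial cells carry the membrane proteins that hold clotting in check. Plasmin, released from plasminogen, dissolves the clot. In inflammation the liver raises fibrinogen synthesis under interleukin 6, and fibrinogen is counted among the acute phase proteins.

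Log2 ratios divide the knockout value by the wildtype value, and the number after ± is the standard error (SE) that follows from the authors' test statistic. That error comes from their model and is not an observed spread. Rises and falls are named only for genes with a q (the p-value adjusted over all tested genes) under 0.05 in the authors' deposited table. Over all tested genes, 1.08% passed that rule. Of these, 66 were higher and 58 lower. All tested genes together had a median log2 ratio of -0.0012. When the FPKM of each group were scaled to an equal sum, 49 were higher and 140 lower, and every log2 ratio moved by -0.19. Read depth per library is unknown. The gene of alkaline sphingomyelinase, Enpp7, was at 0.141 FPKM in knockout livers and 0.0541 FPKM in wildtype livers and was not tested by the authors, so it does not check the labels.

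The tissue label says liver and the design text of the series speaks of intestine. The 9 hepatocyte markers found summed to 34380 FPKM in knockout livers and 28792 FPKM in wildtype livers. Of them 0 passed (0 also at an unadjusted p under 0.05 in the authors' deposited table). The 10 markers of intestinal epithelium summed to 100.4 FPKM in knockout livers and 85.6 FPKM in wildtype livers. Of 6 tested, 0 passed (2 higher and 0 lower at an unadjusted p under 0.05 in the authors' deposited table). Tff3, a trefoil peptide, was at 48.8 FPKM in knockout livers and 23.9 FPKM in wildtype livers. Its log2 ratio was 1.03 ± 0.31 (SE), with q = 0.0775 in the authors' deposited table. Fabp6, a bile acid binding protein, was at 1.97 FPKM in knockout livers and 0.280 FPKM in wildtype livers. Its log2 ratio was 2.82 ± 1.37, with q = 0.860 there. Cdx2, a transcription factor that defines intestinal epithelium, was at 0.0290 FPKM in knockout livers and 0.0333 FPKM in wildtype livers. Of the 6 tested intestinal markers, 4 had a ratio above 0 and 2 below, Fabp2 and Lgals4. Fabp2 was at 42.9 FPKM in knockout livers and 54.7 FPKM in wildtype livers. Lgals4 was at 4.51 FPKM in knockout livers and 5.45 FPKM in wildtype livers. Some markers of other cells did pass. The 8 neutrophil markers summed to 107.7 FPKM in knockout livers and 5.50 FPKM in wildtype livers, and 4 of them rose. The 10 markers of Kupffer cells and macrophages summed to 506 FPKM in knockout livers and 318 FPKM in wildtype livers, and 2 of them rose. The part of these cells in the values of the coagulation genes was not tested.

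Of the 33 tested coagulation and fibrinolysis genes, 2 rose in knockout livers, 0 fell and 31 did not pass. Over all tested genes the share called higher was 0.573% and the share called lower 0.504%. The 2 genes were Fgl1, the fibrinogen-like gene, and Serpina10. The members were chosen with earlier results of these data known, so setting them beside these shares is not a test. At an unadjusted p under 0.05 in the authors' deposited table, 7 were higher and 0 lower, where 5.29% of all tested genes passed, 2.82% higher and 2.47% lower. The median log2 ratio of the 33 was 0.23, and 26 ratios were above 0, against 49.9% of all tested genes. With FPKM scaled to an equal sum, the median was 0.04, with 19 ratios above 0, while the median of all tested genes was -0.20, with 23.0% of their ratios above 0.

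**Figure D1:**
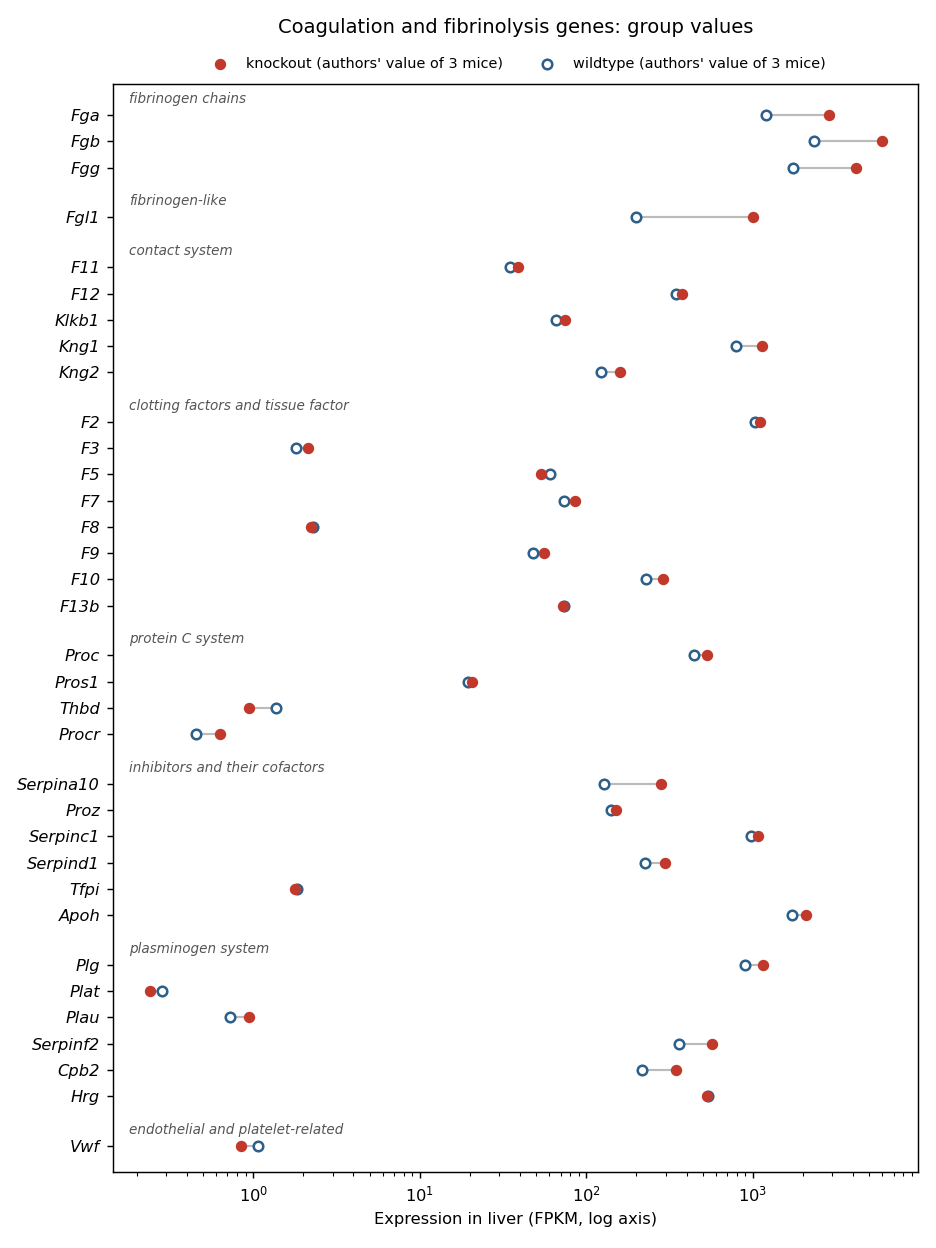
Expression of the 34 genes in FPKM on a log axis, ordered by role; filled points are the authors' knockout value and open points their wildtype value, each joining 3 mice, with no error bars because 1 value per group was deposited. The widest gaps are those of Fgl1 (1004 FPKM in knockout against 199 FPKM in wildtype livers), the 3 fibrinogen chains and Serpina10 (280 FPKM in knockout against 127 FPKM in wildtype livers), and the genes under 3 FPKM form the left edge.

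Fibrinogen, the precursor of fibrin, is built from alpha, beta and gamma chains that pair in equal numbers. Their genes were the most abundant of all members in knockout livers, and each stood between 2.39 and 2.54 times its wildtype value. Fga, the alpha chain, was at 2871 FPKM in knockout livers and 1196 FPKM in wildtype livers. Fgb, the beta chain, was at 5949 FPKM in knockout livers and 2339 FPKM in wildtype livers. Fgg, the gamma chain, was at 4166 FPKM in knockout livers and 1742 FPKM in wildtype livers. None of the chains passed the test over all genes. The log2 ratio of Fga was 1.26 ± 0.62 (SE), with p = 0.0433 and q = 0.886 in the authors' deposited table. For Fgb it was 1.35 ± 0.58, with p = 0.0203 and q = 0.613 in the authors' deposited table, and for Fgg it was 1.26 ± 0.49, with p = 0.0108 and q = 0.398 there.

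The 95% intervals that these errors imply run on the log2 scale over 0.04 to 2.49 for Fga, 0.21 to 2.48 for Fgb and 0.29 to 2.22 for Fgg. The proportions between the chains were close to each other in both groups. Fgb stood at 2.07 times the FPKM of Fga in knockout livers and 1.96 times in wildtype livers, and Fgg at 1.45 times in knockout livers and 1.46 times in wildtype livers. Those proportions were not tested. Quantile normalization set the chains further apart, at log2 ratios of 1.10 for Fga, 0.86 for Fgg and 0.80 for Fgb. The chains together held 2.01% of the listed FPKM in knockout livers and 0.935% in wildtype livers. Among the summed FPKM of the 34 genes their part was 53.1% in knockout livers and 37.6% in wildtype livers.

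**Figure D2:**
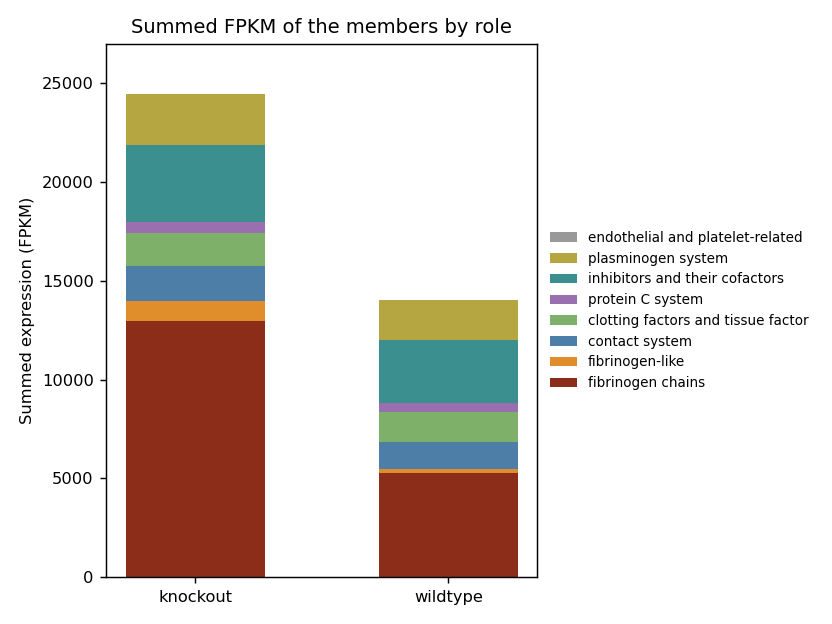
Summed FPKM of the 34 genes, stacked by role, for knockout livers (left) and wildtype livers (right); 1 bar stands for the authors' values of 3 mice and has no error bar. The whole bar reaches 24476 FPKM in knockout livers and 14019 FPKM in wildtype livers, and the fibrinogen chains make up 12986 FPKM of it in knockout livers and 5278 FPKM in wildtype livers.

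The 3 chains lie side by side on chromosome 3, at 83007896 to 83049790 in mm10 (a span of 41895 bases), with Fgg and Fga on the plus strand and Fgb between them and Plrg1 on the minus strand. Their promoters are shown because the chains had nearly the same ratio in the deposited values. The promoter of F9, a clotting factor on the X chromosome, was chosen after the values were seen. It holds 2 of the motifs searched, which overlap, and the ratio of F9 was much smaller (0.22 ± 0.22). Each sequence runs 5′ to 3′ from 250 bases before to 50 after the gene's start in RefSeq (build GRCm38.p6), on the strand of the gene. Capitals mark the motifs CTGGGAA (the core of the interleukin 6 response element known from fibrinogen genes), TTCNNNGAA (the palindrome that STAT factors bind) and GTTAAT (part of the site of the liver factor HNF1), searched on both strands.
Fga promoter, chr3:83025903-83026202, plus strand: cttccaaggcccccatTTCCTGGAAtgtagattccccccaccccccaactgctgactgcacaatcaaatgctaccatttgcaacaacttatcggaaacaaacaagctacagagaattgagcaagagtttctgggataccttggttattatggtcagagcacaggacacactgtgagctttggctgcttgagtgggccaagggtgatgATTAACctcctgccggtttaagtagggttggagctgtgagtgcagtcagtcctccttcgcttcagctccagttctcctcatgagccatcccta
Fgb promoter, chr3:83049814-83050113, minus strand: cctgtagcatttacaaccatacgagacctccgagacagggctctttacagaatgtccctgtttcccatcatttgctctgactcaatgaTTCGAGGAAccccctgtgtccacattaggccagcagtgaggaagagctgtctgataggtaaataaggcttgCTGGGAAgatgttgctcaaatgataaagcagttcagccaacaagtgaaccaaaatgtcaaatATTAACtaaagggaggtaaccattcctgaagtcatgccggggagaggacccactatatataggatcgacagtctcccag
Fgg promoter, chr3:83007474-83007773, plus strand: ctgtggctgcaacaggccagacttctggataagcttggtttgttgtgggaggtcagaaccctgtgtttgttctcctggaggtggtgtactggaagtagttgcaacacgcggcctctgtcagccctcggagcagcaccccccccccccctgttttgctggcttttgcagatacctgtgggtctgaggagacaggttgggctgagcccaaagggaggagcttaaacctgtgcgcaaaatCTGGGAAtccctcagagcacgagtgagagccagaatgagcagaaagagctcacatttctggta
F9 promoter, chrX:59999214-59999513, plus strand: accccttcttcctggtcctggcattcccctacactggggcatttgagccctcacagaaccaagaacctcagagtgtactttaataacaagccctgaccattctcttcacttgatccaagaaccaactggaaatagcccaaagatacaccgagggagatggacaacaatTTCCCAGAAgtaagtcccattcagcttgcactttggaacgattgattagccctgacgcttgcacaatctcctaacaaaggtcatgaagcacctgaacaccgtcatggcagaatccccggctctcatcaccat

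CTGGGAA begins 91 bases before the start of Fgb and 13 bases before that of Fgg. The start of Fgg in the deposited table lies 172 bases further downstream than in RefSeq, and that of Fgb 73 bases further. The window of Fga held no CTGGGAA but the shorter CTGGGA, 121 bases before its start, a core looked up after the sequences were seen. In F9 the CTGGGAA on the opposite strand overlaps a TTCNNNGAA. A promoter was matched for 25 of the 34 genes, and not for Fgl1 or Serpina10. CTGGGAA stood in 5 of the 25 (Fgb, Fgg, Kng2, F9 and Tfpi), and in 12.9% of the tested genes with a promoter. TTCNNNGAA stood in 4 of the 25 and in 8.27% of the tested genes. GTTAAT stood in 5 of the 25 and in 5.68% of the tested genes. The shorter CTGGGA stood in 13 of the 25 and in 37.1% of the tested genes with a promoter. These are matches of letters and not sites shown to be bound. Whether the motifs go with the ratios was not tested.

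Fgl1 had the largest ratio of the 34 genes. It encodes a secreted protein of hepatocytes that carries the fibrinogen-like domain but lacks the parts of fibrinogen that thrombin cuts, and it is known as a growth factor of hepatocytes and a ligand of the T cell receptor LAG3. Its value was 1004 FPKM in knockout livers and 199 FPKM in wildtype livers. The rise was 5.05-fold, with a log2 ratio of 2.34 ± 0.31 (SE), an implied 95% interval of 1.72 to 2.95 and q = 7.22e-11 in the authors' deposited table. Fgl1 was the 16th most abundant member in wildtype livers by FPKM, and its log2 ratio was above that of 99.7% of tested genes. The gene lies on chromosome 8 at 41191434 to 41215156 (mm10, minus strand), apart from the fibrinogen cluster.

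**Figure D3:**
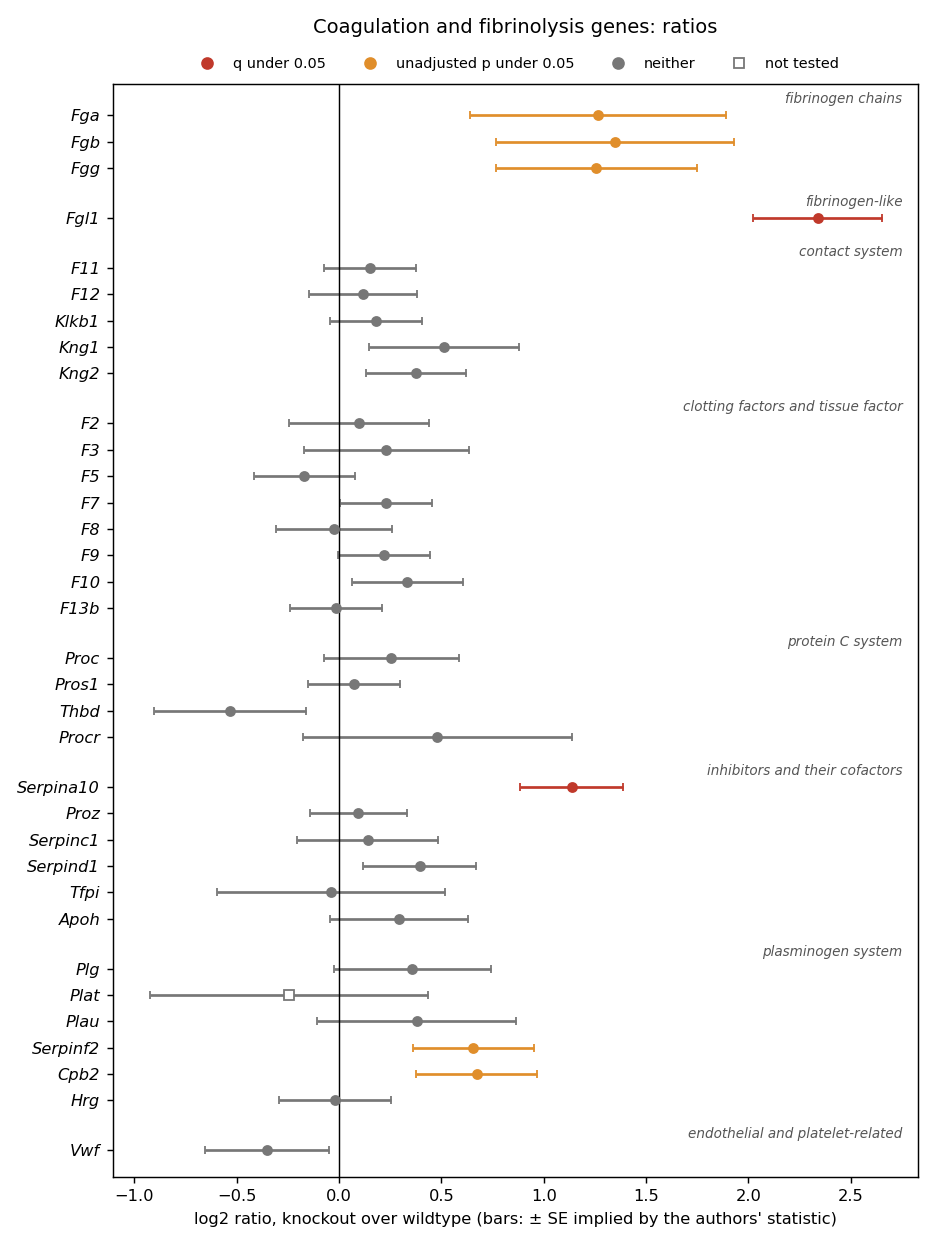
Log2 ratio of knockout over wildtype for the 34 genes, ordered by role; bars are ± 1 SE as implied by the authors' test statistic, and the vertical line marks no difference. Red points (Fgl1 and Serpina10) have a q under 0.05, orange points (Fga, Fgb, Fgg, Serpinf2 and Cpb2) have an unadjusted p under 0.05 only, and the open square is Plat, which the authors did not test.

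The contact system starts clotting on negatively charged surfaces and releases bradykinin from kininogen. Its 5 genes were all tested, and none passed (0 also at an unadjusted p under 0.05 in the authors' deposited table). F12, the protease that opens the pathway, was at 375 FPKM in knockout livers and 345 FPKM in wildtype livers. Klkb1, plasma prekallikrein, was at 74.9 FPKM in knockout livers and 66.1 FPKM in wildtype livers, and F11, which activates factor IX, at 38.7 FPKM in knockout livers and 34.9 FPKM in wildtype livers. Klkb1 shares 42.7% of the 50-base stretches of its principal GENCODE transcript with Gm45753, an overlapping gene on the same strand that was not analysed here. F12, Klkb1 and F11 had log2 ratios of 0.12 to 0.18, which turned negative with FPKM scaled to an equal sum. The kininogens stood somewhat further apart. Kng1 was the most abundant gene of this group, at 1130 FPKM in knockout livers and 791 FPKM in wildtype livers (log2 ratio 0.51 ± 0.37, p = 0.162 in the authors' deposited table). Kng2 was at 159 FPKM in knockout livers and 123 FPKM in wildtype livers (0.37 ± 0.24). The 2 transcripts share sequence: of 1778 stretches of 50 bases in Kng1, 356 occur in Kng2, and of 2245 in Kng2, 409 occur in Kng1. With reads of 50 bases their separate values are uncertain.

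The clotting factors proper and tissue factor, 8 genes, were all tested and none passed (0 also at an unadjusted p under 0.05 in the authors' deposited table). F2, prothrombin, was by far the most abundant, at 1106 FPKM in knockout livers and 1034 FPKM in wildtype livers. Its log2 ratio of 0.10 ± 0.34 became -0.10 with FPKM scaled to an equal sum. F10, whose active form makes thrombin, was at 288 FPKM in knockout livers and 228 FPKM in wildtype livers (0.33 ± 0.27). F7, which starts clotting together with tissue factor, was at 85.8 FPKM in knockout livers and 73.3 FPKM in wildtype livers (0.23 ± 0.22). F9, the factor missing in haemophilia B, was at 55.5 FPKM in knockout livers and 47.7 FPKM in wildtype livers (0.22 ± 0.22). For each of these 3 genes the implied 95% interval included 0. The cofactor F5 was at 53.7 FPKM in knockout livers and 60.5 FPKM in wildtype livers (-0.17 ± 0.25). F13b, the carrier subunit of the fibrin cross-linking enzyme, was at 72.8 FPKM in knockout livers and 73.6 FPKM in wildtype livers (-0.01 ± 0.22), with an implied 95% interval of -0.45 to 0.42.

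The liver makes 7 of the members as precursors that need vitamin K for their calcium-binding residues: F2, F7, F9, F10, Proc, Pros1 and Proz. All 7 ratios were above 0 as deposited, between 0.07 and 0.33, and 4 of the 7 with FPKM scaled to an equal sum, where 49.9% and 23.0% of all tested genes were above 0. None passed. The list of genes of the vitamin K cycle and of factor secretion, to which Gas6 was added, held no call either, with 6 tested and 2 ratios above 0. Of these Lman1, the receptor that carries factors V and VIII out of the endoplasmic reticulum, had the smallest p, at 72.4 FPKM in knockout livers and 95.1 FPKM in wildtype livers (log2 ratio -0.39 ± 0.27, p = 0.138 in the authors' deposited table). Gas6, on the same list, had nearly the same p with a ratio above 0. It was at 28.1 FPKM in knockout livers and 22.2 FPKM in wildtype livers (0.34 ± 0.23).

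Among the inhibitors and their cofactors Serpina10 stood apart. It encodes the protein Z-dependent protease inhibitor, a serpin that inactivates factor Xa with the help of protein Z, and factor XIa without it. Its value was 280 FPKM in knockout livers and 127 FPKM in wildtype livers. The rise was 2.20-fold, with a log2 ratio of 1.14 ± 0.25 (SE), an implied 95% interval of 0.64 to 1.63 and q = 0.00124 in the authors' deposited table. The gene lies on chromosome 12 at 103616675 to 103631405 (mm10, minus strand). Its cofactor Proz, protein Z, was at 151 FPKM in knockout livers and 142 FPKM in wildtype livers (0.09 ± 0.24). Serpina10 thus stood at 1.85 times the FPKM of Proz in knockout livers and 0.899 times in wildtype livers. The difference between the ratios of these 2 genes was not tested.

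The other 4 genes of this group did not pass (0 also at an unadjusted p under 0.05 in the authors' deposited table). Apoh, beta-2-glycoprotein I, a phospholipid-binding plasma protein, was the most abundant of the group, at 2088 FPKM in knockout livers and 1707 FPKM in wildtype livers (log2 ratio 0.29 ± 0.34). Serpinc1, antithrombin, the main inhibitor of thrombin, was at 1072 FPKM in knockout livers and 973 FPKM in wildtype livers (0.14 ± 0.34), a ratio that turned negative with FPKM scaled to an equal sum. In GENCODE the principal Serpinc1 transcript shares 58.8% of its 50-base stretches with Zbtb37 on the opposite strand, which was at 0.658 FPKM in knockout livers and 0.604 FPKM in wildtype livers. Serpind1, heparin cofactor II, was at 295 FPKM in knockout livers and 225 FPKM in wildtype livers (0.39 ± 0.27). Its locus in the deposited table is shared with Pi4ka, a gene on the opposite strand, which was at 5.42 FPKM in knockout livers and 7.08 FPKM in wildtype livers. Tfpi, the inhibitor of the tissue factor pathway, was at 1.78 FPKM in knockout livers and 1.83 FPKM in wildtype livers (-0.04 ± 0.56). The error of Tfpi leaves an implied 95% interval of -1.13 to 1.06, so a change of 2-fold either way was not detectable.

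In the plasminogen system both inhibitors of clot lysis that the liver secretes had an unadjusted p under 0.05. Serpinf2, alpha-2-antiplasmin, which inactivates plasmin, was at 571 FPKM in knockout livers and 363 FPKM in wildtype livers (1.58-fold, log2 ratio 0.66 ± 0.30, p = 0.0261 and q = 0.704 in the authors' deposited table). Cpb2, carboxypeptidase B2 or TAFI, which removes from fibrin the lysines that plasminogen binds, was at 344 FPKM in knockout livers and 216 FPKM in wildtype livers (1.59-fold, 0.67 ± 0.30, p = 0.0227 and q = 0.653 in the authors' deposited table). Neither passed over all genes. The locus of Cpb2 in the deposited table spans 384037 bases, against 41269 for the gene in GENCODE, and takes in Lcp1. That gene was at 26.3 FPKM in knockout livers and 27.4 FPKM in wildtype livers. The implied 95% intervals of Serpinf2 and Cpb2 were 0.08 to 1.23 and 0.09 to 1.25. Plg, plasminogen itself, was the most abundant gene of this group, at 1154 FPKM in knockout livers and 901 FPKM in wildtype livers (0.36 ± 0.38). Hrg, a histidine-rich glycoprotein that binds plasminogen and heparin, was at 533 FPKM in knockout livers and 540 FPKM in wildtype livers (-0.02 ± 0.28).

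The plasminogen activators were scarce in both groups. Plau, urokinase, was at 0.944 FPKM in knockout livers and 0.725 FPKM in wildtype livers (0.38 ± 0.49). Plat, the tissue-type activator, was at 0.238 FPKM in knockout livers and 0.283 FPKM in wildtype livers, and it was the gene the authors left untested. Of the other genes of plasminogen activation and binding, 8 were tested and none passed. Habp2, a protease that activates factor VII and urokinase, had the smallest p of them, at 110.5 FPKM in knockout livers and 79.7 FPKM in wildtype livers (0.47 ± 0.23, p = 0.0416 and q = 0.875 in the authors' deposited table).

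The protein C system shuts off thrombin formation at the vessel wall. Proc, the circulating protease, was at 529 FPKM in knockout livers and 443 FPKM in wildtype livers (log2 ratio 0.25 ± 0.33). Its cofactor Pros1, protein S, was at 20.5 FPKM in knockout livers and 19.5 FPKM in wildtype livers (0.07 ± 0.22). The endothelial parts of the system lay near the floor. Thbd, thrombomodulin, which turns thrombin towards protein C, had the lowest log2 ratio of the 34 genes, at 0.949 FPKM in knockout livers and 1.37 FPKM in wildtype livers (-0.53 ± 0.37, p = 0.151 in the authors' deposited table). Procr, the endothelial protein C receptor, was at 0.631 FPKM in knockout livers and 0.452 FPKM in wildtype livers (0.48 ± 0.66). None of the 4 genes passed.

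The genes made mainly outside hepatocytes were all low. Vwf, von Willebrand factor, which tethers platelets and carries factor VIII, was at 0.841 FPKM in knockout livers and 1.07 FPKM in wildtype livers (log2 ratio -0.35 ± 0.30). F8, the factor missing in haemophilia A, which endothelium makes, was at 2.23 FPKM in knockout livers and 2.27 FPKM in wildtype livers (-0.02 ± 0.28). F3, tissue factor, was at 2.13 FPKM in knockout livers and 1.81 FPKM in wildtype livers (0.23 ± 0.40). In all, 8 of the 34 genes were under 3 FPKM in both groups (Vwf, F8, F3, Tfpi, Thbd, Procr, Plau and Plat), and of the 7 tested among them 3 ratios were above 0. Of the other 26 genes, all above 3 FPKM, 23 ratios were above 0 as deposited and 16 with FPKM scaled to an equal sum, which moves every gene alike and left 23.0% of all tested genes above 0. The 12 endothelial markers, none of them at 0, summed to 152 FPKM in knockout livers and 160.5 FPKM in wildtype livers, with 9 ratios below 0 and 0 calls (1 lower at an unadjusted p under 0.05 in the authors' deposited table, Ehd3). Over all tested genes 49.9% of ratios were above 0. A difference in the number of cells of a type and one in RNA per cell cannot be told apart in whole liver.

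Platelet transcripts were near the floor too. The 8 platelet and megakaryocyte markers summed to 5.69 FPKM in knockout livers and 3.33 FPKM in wildtype livers, 3 were tested and none passed. Treml1 was listed at 0 in wildtype livers. Ppbp, a chemokine stored in platelets, had an unadjusted p under 0.05, at 1.51 FPKM in knockout livers and 0.490 FPKM in wildtype livers (log2 ratio 1.62 ± 0.74, p = 0.0290 and q = 0.740 in the authors' deposited table).

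Beyond the 34 genes, 43 others of the pathway were listed and 30 tested, and 0 passed (3 higher and 0 lower at an unadjusted p under 0.05 in the authors' deposited table). Their median log2 ratio was 0.18, with 19 of 30 above 0, and -0.01 with FPKM scaled to an equal sum. The 3 were Habp2, Serping1 and C4bp. Serping1, the C1 inhibitor, which also blocks factor XIIa and kallikrein, was at 614 FPKM in knockout livers and 410 FPKM in wildtype livers (log2 ratio 0.58 ± 0.29, p = 0.0410 and q = 0.872 in the authors' deposited table). C4bp, the C4b-binding protein, was at 368 FPKM in knockout livers and 258 FPKM in wildtype livers (0.51 ± 0.26, p = 0.0474 and q = 0.923 in the authors' deposited table). Among the tested genes of the fibrin-related list Vtn, vitronectin, which stabilises the inhibitor PAI-1, had the smallest p, at 2270 FPKM in knockout livers and 1545 FPKM in wildtype livers (0.55 ± 0.42). F2r, the main thrombin receptor, was the 1 protease receptor tested, at 13.9 FPKM in knockout livers and 13.3 FPKM in wildtype livers (0.06 ± 0.23).

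The precision of these ratios depended on the level of the gene. Over all tested genes the median implied SE was 0.279, and over the 82 tested genes with a mean of at least 1000 FPKM it was 0.354. The SE of the 33 tested members ran from 0.22 for F11 to 0.66 for Procr. The fibrinogen chains, at 0.49 to 0.62, had wider errors than the other abundant members, so a ratio larger than that of Serpina10 did not pass for them. The smallest absolute log2 ratio of any called gene in the authors' deposited table was 0.78, which is larger than the ratios of the 28 other tested members.

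**Figure D4:**
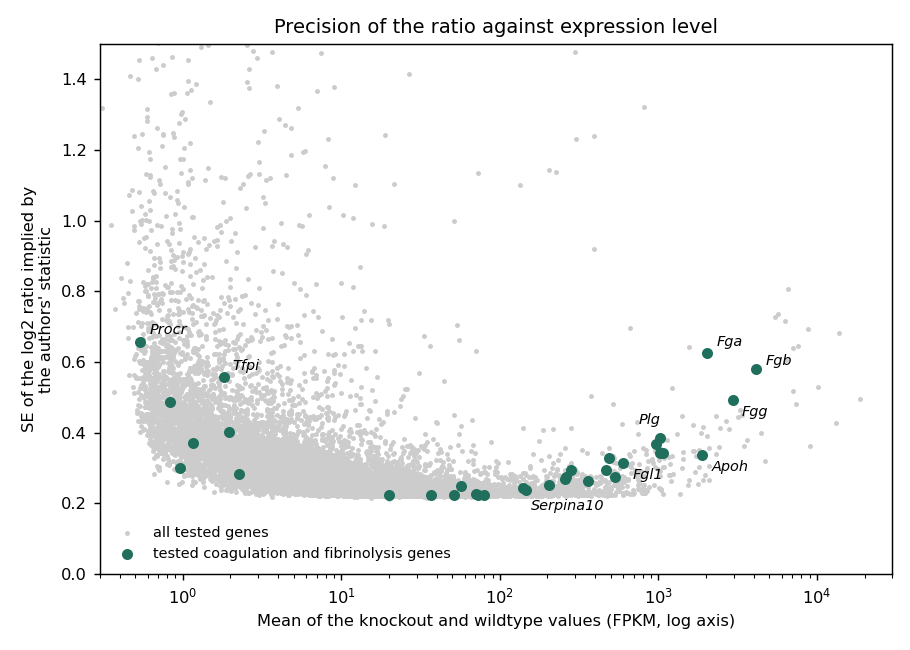
SE of the log2 ratio implied by the authors' statistic against the mean of the knockout and wildtype values in FPKM (log axis); grey points are all tested genes, green points the 33 tested members, and 198 genes lie outside the axes. The errors are lowest, near 0.22, for genes of middle level and widen at both ends, where Procr, Tfpi and the fibrinogen chains stand.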

How the data were processed

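Reads were processed with Bowtie2 on build mm10, per the submitters' processing notes; the program that made the tables, its handling of strand and of reads mapping to several places are not given in the sources used here. Libraries were made with the TruSeq RNA kit per the labels' protocols. A table of all genes was deposited together with a short list of 95 called genes, all also called in the full table. The unit is not named in the file headers; the deposited values were read as FPKM from the table's Cuffdiff layout. Each joins the 3 libraries of a group, so depth per library is unknown, no counting interval can be given, and nothing could be fitted per library. The table holds 0 columns of other samples. The deposited log2 column divides wildtype by knockout, per the file headers, and its sign was turned round; the recomputed log2 ratios differed from it by at most 1.29e-05. The authors' test statistic, a score, behaved as a normal z. The deposited q-value could be recomputed from the deposited p-value by Benjamini-Hochberg adjustment (largest difference 1.99e-06).

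The SE is the log2 ratio divided by that statistic. Calls are q under 0.05 in the authors' deposited table. Whether the libraries are separate mice rests on the animal numbers in their names, so the p-values may measure technical spread. The equal-sum scalings and quantile normalization kept the implied SE, changed the ratio and readjusted p over all tested genes. This step was tested on simulated data. The alternative with a mean of at least 1 FPKM kept the ratio and readjusted p over the 10436 genes left. A pseudocount changed the ratio only. The limits on the absolute log2 ratio and on q were set on the deposited values. The members and lists, including the other pathway genes and markers, were chosen with earlier results of these data known. Every member is given; those with p or q under 0.05, the most abundant of each role, and the untested one get full values. Other pathway genes are named when they pass, or by the smallest p of their list. Motif positions come from RefSeq promoters (GRCm38.p6), and shared 50-base stretches from GENCODE transcripts. Starts in the deposited table count from 0, and 1 was added. Python 3.11.15, pandas 2.3.3 and scipy 1.17.1 were used.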

Additional observations from a re-analysis of the deposited data

How the results depend on the processing

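Only Fgl1 and Serpina10 passed as higher, and 0 members as lower, in the deposited values and under each alternative: FPKM scaled to an equal sum in both groups, the same with the 20 genes of highest value left out of the sum, quantile normalization, a mean of at least 1 FPKM, an absolute log2 ratio of at least 1, and q under 0.1. The other pathway genes held 0 calls under these alternatives. The limit of 1 on the absolute log2 ratio and the q under 0.1 were set on the deposited values. Neither could lose the calls of Fgl1 and Serpina10, and the limit of 1 could add none. The equal-sum scaling moved the median log2 ratio of the members to 0.037, F2 turned to -0.10, and 7 members changed sign (F11, F12, Klkb1, F2, Pros1, Proz and Serpinc1), because that scaling takes 0.19 from every ratio; over all genes it gave 189 calls, against 124 as deposited. Under quantile normalization Fgb was at 0.80, Fgg at 0.86 and Fga at 1.10, so that Fgb was the lowest of the chains and not the highest. That method replaces each value by the mean of the values of the same rank in both groups. These ratios therefore rest on the rank of each gene within its group. A pseudocount of 1 or 0.5 left the median at 0.18 or 0.23. No paired analysis was possible because the deposited values join the 3 libraries of a group and the animal numbers are not shared between groups; for the same reason no library could be left out.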

Other observations

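The genes beside those with the largest ratios were looked at after the values were seen. Next to the fibrinogen cluster on chromosome 3, Plrg1, a splicing factor 5748 bases away, was at 14.2 FPKM in knockout livers and 12.2 FPKM in wildtype livers (log2 ratio 0.22 ± 0.25), and Lrat, the retinol-esterifying enzyme of stellate cells on the other side, was at 2.28 FPKM in knockout livers and 3.56 FPKM in wildtype livers (-0.64 ± 0.28). Next to Serpina10 on chromosome 12, Serpina6, the corticosteroid-binding globulin, was at 194 FPKM in knockout livers and 212 FPKM in wildtype livers (-0.13 ± 0.23), and Ppp4r4, a phosphatase subunit on the other side, 2843 bases away, was at 2.18 FPKM in knockout livers and 1.89 FPKM in wildtype livers (0.21 ± 0.32). Next to Fgl1 on chromosome 8, Pcm1, a centriolar satellite protein, was at 1.29 FPKM in knockout livers and 1.78 FPKM in wildtype livers (-0.46 ± 0.28), and B430010I23Rik on the other side was at 2.61 FPKM in knockout livers and 2.55 FPKM in wildtype livers (0.03 ± 1.13). None of these neighbours passed the authors' test, and Lrat had an unadjusted p of 0.0214 in the authors' deposited table. Lrat is 1 of 8 markers of stellate cells and fibroblasts, all tested and none called, with 6 ratios below 0. At an unadjusted p under 0.05 there, 2 of these 8 were lower and 0 higher, where 2.47% of all tested genes were lower.

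Other clusters of coagulation genes were compared in the same way. F7, F10 and Proz, within 48973 bases of chromosome 8, had log2 ratios of 0.09 to 0.33. Hrg, Kng2 and Kng1, within 131007 bases of chromosome 16, ran from -0.02 to 0.51. F11 and Klkb1, within 53666 bases of chromosome 8, were at 0.15 and 0.18.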
